A study of Mus musculus with 15 samples.

Results

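The comparison is between the small-intestinal epithelium of mice given RANKL for 4 days and that of mice given it for 3 days, and it was made over all 19938 measured genes. It rests on the 3 arrays titled for 4 days and the 3 titled for 3 days, 6 of the 15 arrays of the series. All mice were wild-type BALB/c of 10 weeks of age. The agent is given as a GST-RANKL fusion protein injected into the peritoneal cavity each day, and the titles call the treatment VE-RANKL. Both groups therefore carry GST and repeated injections, and the remaining 9 arrays hold 3 untreated controls, with no agent, and 3 arrays each after 1 and 2 days of RANKL. No group given GST alone is among the samples. The epithelium was detached with EDTA and RNA was read on Affymetrix arrays. The cells are a mixture, so in every result fewer cells of a type and less RNA per cell cannot be told apart.

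RANKL belongs to the TNF family, and its receptor, RANK, signals through NF-kB. In the gut it is the signal that turns epithelial cells over lymphoid follicles into M cells, which carry particles from the lumen to the immune cells beneath. Given to a mouse, it makes M cells appear on villi that normally lack them. The transcription factor Spib is needed for their maturation, and Gp2, a receptor for bacterial fimbriae, marks the mature cell. Epithelial cells of the villus live only for days, so a longer treatment is read on cells that were partly born under it.

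The defining epithelial genes were high on both days. The mean log2 intensity of Vil1, the actin-bundling protein villin, was 12.44 on day 3 and 12.63 on day 4, and that of the adhesion molecule gene Epcam was 11.77 and 11.78. Background was read from 3 Y-linked genes, which lay between 4.88 and 5.50 on all 15 arrays while the X-inactivation RNA Xist was at least 11.93. Of the 6 arrays compared, the root mean square deviation from the group mean was 0.134, 0.131 and 0.1 on day 3 and 0.098, 0.106 and 0.119 on day 4. RANKL day 1 replicate 2 stood apart from the other arrays. In the fit it enters only the estimate of the spread, but it also took part in the normalization and the choice of probe sets.

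From day 3 to day 4, 3 genes fell and none rose at an adjusted p under 0.05. They are Hamp, which encodes the iron-regulating hormone hepcidin, Wfdc18, which encodes a small secreted protein with a whey acidic protein core, and Plekhs1, which encodes a protein with a pleckstrin homology domain. These are 0.015% of the 19938 genes tested with limma, against 0.0% called higher. All 3 genes had been called higher on day 2 than in controls, and the means of that comparison use no day 3 or day 4 array. The calls of both comparisons use the spread over all 15 arrays. In a fit of the 6 arrays alone no gene was called. Hamp and Plekhs1 are among the dimmest 40% of genes, so a filter on these leaves Wfdc18 as the only 1 of the 3 tested.

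The 250 bases before the start of these 3 genes are shown because these genes carried the calls, with the neighbour Wfdc17 for comparison with Wfdc18. The sequences are RefSeq's on GRCm38.p6 and run 5′ to 3′ along the gene. The Hamp window is chr7:30944030-30944279 on the minus strand. The Wfdc18 window is chr11:83708754-83709003 on the plus strand. The Wfdc17 window is chr11:83703806-83704055 on the plus strand, upstream of Wfdc18. The Plekhs1 window is chr19:56461387-56461636 on the plus strand. Capitals mark matches on either strand to the kappa B pattern GGGNNNNNCC, the STAT pattern TTCNNNGAA or the Ets core AGGAAG.
Hamp: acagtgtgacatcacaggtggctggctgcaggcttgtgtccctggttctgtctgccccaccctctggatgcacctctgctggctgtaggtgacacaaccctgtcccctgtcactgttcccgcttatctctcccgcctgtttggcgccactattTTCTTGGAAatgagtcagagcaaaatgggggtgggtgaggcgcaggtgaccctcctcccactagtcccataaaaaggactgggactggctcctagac
Wfdc18: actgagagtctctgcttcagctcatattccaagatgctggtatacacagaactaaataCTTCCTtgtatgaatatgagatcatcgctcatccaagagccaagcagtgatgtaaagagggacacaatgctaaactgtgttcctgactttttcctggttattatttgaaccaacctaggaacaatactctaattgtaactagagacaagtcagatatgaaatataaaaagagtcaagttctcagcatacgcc
Wfdc17: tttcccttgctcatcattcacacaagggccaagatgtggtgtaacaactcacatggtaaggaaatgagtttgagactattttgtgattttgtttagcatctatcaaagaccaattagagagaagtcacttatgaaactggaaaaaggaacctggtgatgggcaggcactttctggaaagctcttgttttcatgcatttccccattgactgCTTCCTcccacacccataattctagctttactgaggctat
Plekhs1: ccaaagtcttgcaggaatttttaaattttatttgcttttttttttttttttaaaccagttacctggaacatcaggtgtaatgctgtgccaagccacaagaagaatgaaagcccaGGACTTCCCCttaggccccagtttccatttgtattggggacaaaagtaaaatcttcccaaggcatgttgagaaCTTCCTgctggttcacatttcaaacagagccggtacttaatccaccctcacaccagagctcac

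The Hamp window held 1 STAT match, TTCTTGGAA, which begins 97 bases before the start. That pattern occurred in 7.02% of the 32851 RefSeq promoter windows of the same 250 bases. Wfdc18 and Wfdc17 each held 1 Ets match. Plekhs1 held 1 Ets match and 1 kappa B match. The Ets core occurred in 29.5% of all windows and the kappa B pattern in 45.8%. A match describes the letters of the window only.

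Hamp (probe set 10562169) read log2 intensities of 8.54, 8.19 and 7.65 on the 3 day 3 arrays and 5.98, 6.55 and 5.99 on the 3 day 4 arrays. Every day 4 array lay below every day 3 array, and the day 4 arrays were above the control mean of 5.68. It fell by 1.96 ± 0.20 (log2 change ± SE from limma, with n = 3 arrays in each group, as for the changes given from here on), a 3.88-fold change with an adjusted p of 0.00412. Its means after 1 and 2 days of RANKL were 5.86 and 7.85. The neighbouring and closely related gene Hamp2, chosen after its values were seen, stayed between 6.87 and 7.06 on the 6 arrays (difference of -0.04 ± 0.14). Probes of near-identical genes can share signal, for Hamp as for the Saa, Wfdc and Cyp genes below. Slc40a1, which encodes the iron exporter ferroportin that hepcidin removes from the cell surface, read 7.40, 6.18 and 7.07 on day 3 and 6.51, 6.46 and 7.68 on day 4, and the groups overlapped.

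Wfdc18 (probe set 10379731) read 8.0, 8.16 and 8.87 on day 3 and 6.56, 6.91 and 7.02 on day 4. The groups did not overlap, and the day 4 arrays were above the control mean of 6.32. It fell by 1.51 ± 0.18 (2.86-fold, limma adjusted p of 0.0085, n = 3 arrays per group). Its call was lost without RANKL day 4 replicate 1 (adjusted p = 0.0765) and without the control arrays in the fit (0.0576).

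Plekhs1 (probe set 10464137) read 7.34, 7.44 and 7.65 on day 3 and 6.41, 6.61 and 6.24 on day 4. The groups did not overlap, and its means were 5.86 in controls, 6.22 on day 1 and 7.91 on day 2. It fell by 1.06 ± 0.13 (2.08-fold, limma adjusted p of 0.0085, n = 3 arrays per group). Its call was lost when replicate 3 of day 3 (adjusted p = 0.0835), replicate 1 of day 4 (0.0765), replicate 3 of day 4 (0.0579) or the controls (0.0576) were left out.

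**Figure D1:**
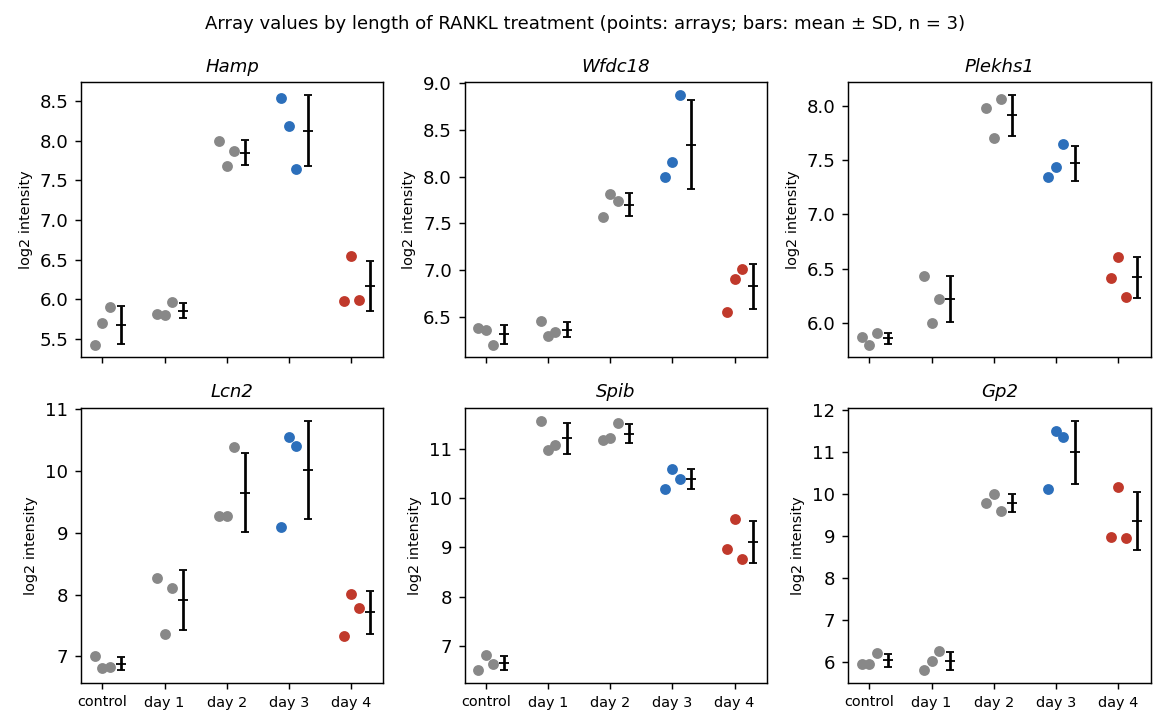
Log2 intensity of 6 genes on the 15 arrays by length of RANKL treatment, with day 3 in blue and day 4 in red; points are arrays and bars the group mean ± SD (n = 3). In Hamp, Wfdc18, Plekhs1, Lcn2 and Spib all day 4 arrays lie below all day 3 arrays, whereas in Gp2 day 4 replicate 2 (10.17) lies just above day 3 replicate 1 (10.12).

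Beyond the 3 calls the differences between the days were mostly small. At an unadjusted p under 0.05, 285 genes were lower on day 4 (1.43%) and 803 were higher (4.03%), together 5.46% of the genes tested. That total is near the share of 0.05 that such a threshold passes where no gene differs. In 978 genes (4.91%) all 3 day 4 arrays lay below all 3 day 3 arrays, and in 1695 genes (8.5%) all lay above. In mean, 45.5% of all genes were lower on day 4 and 54.5% were higher. The median change of all genes was 0.009, the middle of the distribution ran from -0.17 at the 5th percentile to 0.23 at the 95th, and the median SE was 0.1. At an adjusted p under 0.1 there were 10 genes, 8 lower and 2 higher. The 2 higher genes, named here after their values were seen, were Scin, an actin-severing protein (0.45 ± 0.07, limma adjusted p = 0.0653), and Capn9, a digestive-tract calpain (0.61 ± 0.10, 0.0812). Both had been called lower on day 2 than in controls.

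The lowest differences among genes that did not pass the test were those of Lcn2, Saa1 and Slc6a14, followed by Gp2 and Wfdc17. Lcn2, an antimicrobial protein that binds bacterial siderophores, read 9.09, 10.55 and 10.40 on day 3 and 7.33, 8.01 and 7.78 on day 4. The groups were separated by over a log2 unit, yet the difference of -2.31 ± 0.38 had a limma adjusted p of 0.0812. Lcn2 passed the test when the dimmest 40% of genes were left out, with array weights, and when replicate 2 of day 1 or replicate 1 of day 3 was left out. The acute phase genes Saa1 and Saa3 differed by -2.19 ± 0.70 (adjusted p = 0.55) and -0.99 ± 0.28 (0.392). Of the 22 antimicrobial and acute phase genes measured, none was called, and 17 were lower in mean on day 4 (45.5% of all genes were). There was no overlap below in 9 (4.91% of all genes) and none above in 2 (8.5%). The median change of this list was -0.16.

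Wfdc17, the neighbour of Wfdc18, read 9.45, 9.10 and 9.36 on day 3 and 7.44, 7.88 and 8.15 on day 4. All day 4 arrays were lower, with a difference of -1.48 ± 0.29 (limma adjusted p = 0.159). Ly6d, which encodes a GPI-anchored surface protein, read 9.13, 9.28 and 10.26 and then 7.48, 8.46 and 8.58, a difference of -1.38 ± 0.32 (adjusted p = 0.209). Of the 14 whey acidic protein and Ly6 genes measured, Wfdc18 fell and none rose. In 5 there was no overlap below (4.91% of all genes), and the median change was -0.06. These genes were thus a few large differences among members that differed little.

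In the list of 24 iron and metal handling genes Hamp fell and none rose. Over the whole list the members were divided, with 12 of the 24 higher and 12 lower in mean and a median change of 0.0. Slc6a14, a broad amino acid transporter, differed by -1.92 ± 0.61 (limma adjusted p = 0.541), the largest lower value of the 20 amino acid and peptide transporters, of which 13 were higher in mean. Slc2a6, a hexose transporter of internal membranes, came nearest to the threshold of all genes not called. It read 9.58, 9.87 and 10.15 on day 3 and 8.51, 9.01 and 8.55 on day 4, with no overlap and a difference of -1.18 ± 0.17 (limma adjusted p = 0.0526).

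None of the 24 genes of the M cell list was called between the 2 days, but most were lower on day 4. In mean 19 were lower and 5 higher, against 45.5% and 54.5% of all genes. Of the 24, 11 had no overlap below and 0 above, against 4.91% and 8.5% of all genes. The median change was -0.39, against 0.01 over all genes. The summed linear intensity of the list was 28515 to 33754 on the day 3 arrays and 20380 to 26759 on the day 4 arrays. It was 9930 to 10681 in controls, so the day 4 arrays still lay above all controls. Day 4 replicate 2 was the highest day 4 array for Gp2, Spib, Anxa5 and Ccl20.

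The windows before Spib and Gp2 are shown as those of the M cell regulator and of the mature marker. The Spib window is chr7:44532072-44532321 on the minus strand and the Gp2 window is chr7:119459273-119459522 on the minus strand (RefSeq, GRCm38.p6), with the same patterns in capitals. Spib held kappa B matches at 3 positions and Gp2 held no match to the 3 patterns.
Spib: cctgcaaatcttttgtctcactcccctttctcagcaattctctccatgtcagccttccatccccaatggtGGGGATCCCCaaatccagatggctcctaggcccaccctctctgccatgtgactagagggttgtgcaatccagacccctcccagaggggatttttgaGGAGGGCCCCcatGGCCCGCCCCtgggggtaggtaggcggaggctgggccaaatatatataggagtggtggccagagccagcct
Gp2: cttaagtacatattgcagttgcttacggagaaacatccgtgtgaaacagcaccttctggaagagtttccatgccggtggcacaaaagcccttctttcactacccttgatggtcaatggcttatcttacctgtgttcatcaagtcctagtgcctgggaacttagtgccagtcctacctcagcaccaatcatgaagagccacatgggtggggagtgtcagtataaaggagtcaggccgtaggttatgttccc

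Among the regulators of the M cell, Spib (probe set 10562812) read 10.18, 10.60 and 10.39 on day 3 and 8.96, 9.58 and 8.77 on day 4. The groups did not overlap, and all day 4 arrays were far above the control mean of 6.65. The difference was -1.29 ± 0.20 (limma adjusted p = 0.0653, n = 3 arrays per group). Its means on days 1 and 2 were 11.22 and 11.31, so both later days lay below the earlier ones. Sox8, a further transcription factor of M cell maturation, differed by -0.55 ± 0.10 (adjusted p = 0.112), and Esrrg by 0.02 ± 0.12. Spib passed the test when the dimmest 40% of genes were left out, with a trended and robust prior, with array weights, and when replicate 2 of day 1, replicate 1 of day 3 or replicate 2 of day 4 was left out.

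Of the surface and secreted products, Gp2 (probe set 10567366) read 10.12, 11.49 and 11.35 on day 3 and 8.97, 10.17 and 8.95 on day 4. The groups overlapped through day 3 replicate 1 and day 4 replicate 2. The difference was -1.63 ± 0.34 (limma adjusted p = 0.182). Without either of these arrays Gp2 was called. Its means were 6.04 in controls, 6.02 on day 1 and 9.79 on day 2, so that day 3 held the highest mean of the 5 groups.

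Anxa5, a phosphatidylserine-binding annexin, read 11.29, 12.07 and 11.78 on day 3 and 10.48, 11.00 and 10.32 on day 4. It did not overlap and differed by -1.12 ± 0.20 (limma adjusted p = 0.112). Ccl20, the chemokine that draws Ccr6-bearing lymphocytes and dendritic cells, read 10.22, 10.56 and 10.61 and then 9.24, 9.55 and 9.38, also without overlap (-1.07 ± 0.20, adjusted p = 0.137). The differences of the M cell marker Tnfaip2 (-0.94 ± 0.22), the chemokine Ccl9 (-0.83 ± 0.17) and the lipid carrier Fabp5 (-0.96 ± 0.20) were of similar size, with adjusted p-values of 0.223, 0.182 and 0.182.

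Further members of the M cell list had overlapping groups, with mean differences on either side of 0. H2-M2, a nonclassical MHC class I gene, was 10.03, 10.29 and 9.31 on day 3 and 10.56, 10.88 and 10.05 on day 4, an overlapping difference of 0.62 ± 0.26 (limma adjusted p = 0.827). The receptor gene Tnfrsf11a, which encodes RANK, differed by 0.02 ± 0.11, and the NADPH oxidase gene Nox1 by -0.43 ± 0.24, both with adjusted p of 1.0. The chemokine gene Cxcl16 and the inhibitor gene of NF-kB Nfkbia, chosen after their values were seen, differed by 0.09 ± 0.11 and 0.02 ± 0.13. Of 21 NF-kB pathway and target genes none was called, 15 were higher and 6 lower in mean, and the median change was 0.04. In this list 2 had no overlap below (4.91% of all genes) and 1 above (8.5%). The lowest was Icam1, an adhesion molecule gene, at -0.31 ± 0.09 without overlap (limma adjusted p = 0.512).

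**Figure D2:**
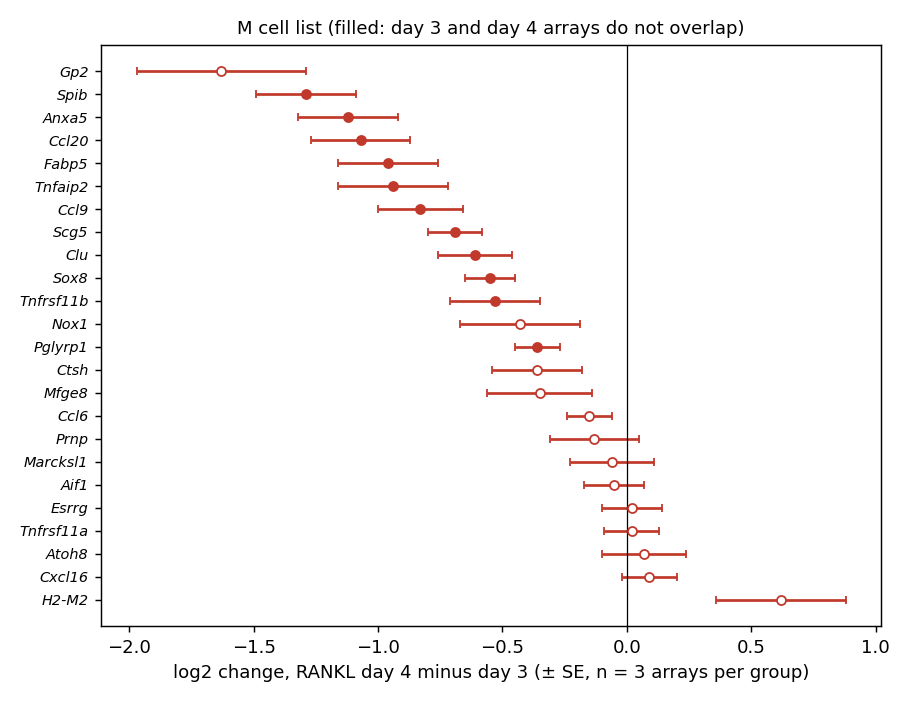
Log2 change from day 3 to day 4 of the 24 M cell list genes, with SE (limma, n = 3 arrays per group); filled points are genes whose arrays do not overlap. The 11 filled points all lie below 0, and H2-M2 (0.62) is the highest point.

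The genes called between day 2 of RANKL and the untreated controls were then followed from day 3 to day 4. The controls had no agent, so in this set RANKL, GST and the injections cannot be told apart. The set was taken from the day 2 and control arrays, which the comparison of days 3 and 4 does not use, and it was added after the data were seen. On day 2, 303 genes (1.52%) were called higher and 210 genes (1.05%) lower than in controls. Of the 303 higher genes, 234 (77.2%) were lower in mean on day 4 than on day 3, against 45.5% of all genes. In 90 of them (29.7%) all day 4 arrays lay below all day 3 arrays, and in 13 (4.29%) above. Over all genes these shares were 4.91% and 8.5%.

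Of the 210 genes lower on day 2, 200 (95.2%) were higher in mean on day 4 than on day 3, against 54.5% of all genes. In 91 (43.3%) all day 4 arrays lay above (8.5% of all genes), and in 0 below (4.91%). The median change was -0.13 ± 0.08 (SD over 3 day 4 arrays) for the genes higher on day 2 and 0.24 ± 0.11 for those lower on day 2. Day 4 replicate 2 was nearest to the day 3 mean in both sets, with medians of -0.05 and 0.11 against -0.19 and 0.29 for replicate 1 and -0.18 and 0.32 for replicate 3. The median of the higher set was again -0.13 over the 271 genes outside the M cell and NF-kB lists.

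**Figure D3:**
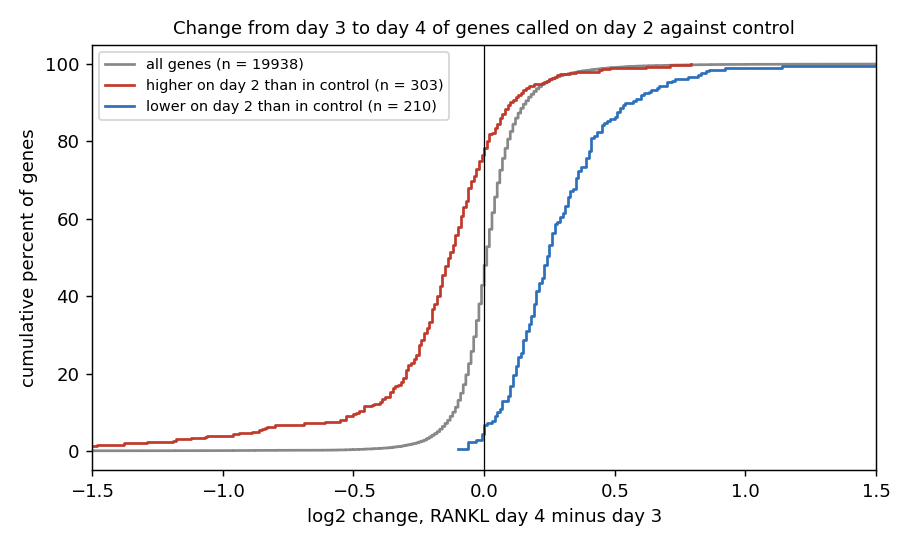
Cumulative percent of genes by log2 change from day 3 to day 4, for all 19938 genes (grey), the 303 genes called higher on day 2 than in controls (red) and the 210 called lower (blue). The red curve is shifted to lower values (median -0.13) and the blue curve to higher ones (median 0.24).

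On day 4, 20 genes were higher by 1 or more on the log2 scale, 15 of them without overlap, and none was called. The 3 largest of these differences were in P450 genes. Cyp2c65, an intestinal P450 enzyme, read 7.75, 8.53 and 7.62 on day 3 and 10.66, 9.64 and 9.74 on day 4. The groups did not overlap, the day 4 arrays lay about the control mean of 9.96, and the difference was 2.05 ± 0.40 (limma adjusted p = 0.159). Cyp3a11, a main drug-metabolizing P450 enzyme, read 6.41, 7.06 and 5.87 and then 9.32, 8.03 and 7.70, a difference of 1.90 ± 0.45 (adjusted p = 0.23). Cyp2d26 read 10.78, 11.17 and 9.79 and then 12.54, 12.20 and 11.90, a difference of 1.63 ± 0.33 (adjusted p = 0.176).

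Of 18 P450 genes measured, none was called and 17 were higher in mean (54.5% of all genes were). There was no overlap above in 10 (8.5% of all genes) and none below in 0 (4.91%). The median change of these genes was 0.55, or 0.31 without RANKL day 4 replicate 1. Their summed linear intensity was 15816 to 20108 on day 3 and 22319 to 32493 on day 4, which did not overlap, against 19515 to 29264 in controls. Day 4 replicate 1 was the highest of the 3 day 4 arrays in Cyp2c65, Cyp3a11, Cyp2d26 and Cyp3a25.

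Enzymes of steroid metabolism were next. Akr1c14, which acts on hydroxysteroids, differed by 1.33 ± 0.35 (limma adjusted p = 0.309), and the steroid dehydrogenase gene Hsd3b3 by 1.33 ± 0.32 (0.25). In the list of 16 steroid dehydrogenases and aldo-keto reductases 12 were higher in mean (54.5% of all genes were). There was no overlap above in 6 (8.5% of all genes) and none below in 1 (4.91%). The median change was 0.3. Adh1, an alcohol and retinol dehydrogenase gene, read 10.86, 11.43 and 10.58 on day 3 and 12.38, 11.99 and 12.16 on day 4 (1.22 ± 0.42, adjusted p = 0.638). The retinal dehydrogenase gene Aldh1a1 differed by 0.89 ± 0.31, but of the 21 retinoid genes 15 were higher and 6 lower in mean, 3 had no overlap above (8.5% of all genes had none), and the median change was 0.07.

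In the list of glutathione and phase II enzymes 26 of 29 were higher in mean (54.5% of all genes were). Of the 29, 8 had no overlap above (8.5% of all genes) and 0 below (4.91%), and the median change was 0.26. The glutathione transferase genes Gstm1 and Gstk1 differed by 0.83 ± 0.20 and 0.82 ± 0.17 (limma adjusted p = 0.223 and 0.176). Ehhadh, an enzyme of peroxisomal fatty acid oxidation, differed by 0.76 ± 0.16 (adjusted p = 0.176), and 20 of 23 PPAR alpha targets were higher in mean with a median of 0.15. No member of these lists was called in either direction.

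The same group of largest differences held genes outside these lists. Agmo, which cleaves ether lipids, read 9.50, 9.86 and 9.44 on day 3 and 11.05, 10.50 and 10.31 on day 4, without overlap (1.02 ± 0.23, limma adjusted p = 0.202). Kyat1, a kynurenine aminotransferase gene, differed by 1.14 ± 0.30 (adjusted p = 0.315), with day 4 replicate 1 at 10.67 and the other day 4 arrays at 9.05 and 9.18. The membrane protein gene Tm4sf4 differed by 1.25 ± 0.39 (0.532) and the cation channel gene Trpc1 by 1.03 ± 0.28 (0.332).

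**Figure D4:**
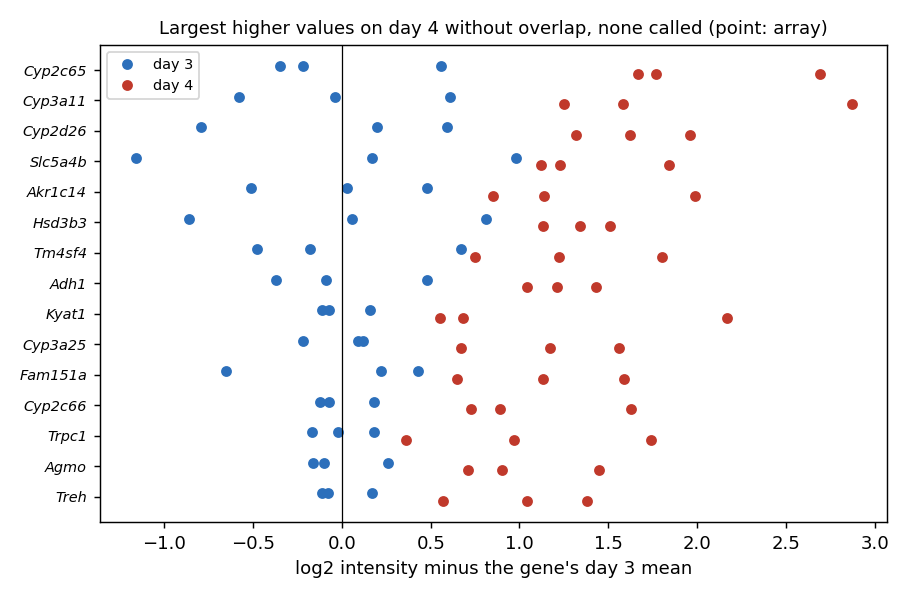
Log2 intensity of the 15 genes with the largest higher values on day 4 among those without overlap, each relative to its day 3 mean, on the 3 day 3 (blue) and 3 day 4 (red) arrays. Genes were taken only where the groups did not overlap, so the separation comes from the choice; the points show the spread within each day, as in Cyp3a11, whose day 4 values were 9.32, 8.03 and 7.70. None of these genes was called.

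Genes of the absorptive brush border were mostly higher in mean on day 4, and none was called. Of 18 brush border structure genes 17 were higher in mean (54.5% of all genes were). In this list 8 had no overlap above (8.5% of all genes) and 0 below (4.91%), and the median was 0.17. The list's summed linear intensity was 77045 to 79308 on day 3 and 82516 to 88986 on day 4, without overlap. Pdzk1, a scaffold protein of the apical membrane, differed by 0.54 ± 0.21 (limma adjusted p = 0.734).

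Among the enzymes and transporters of this surface single arrays differed widely. Treh, which encodes trehalase, read 8.46, 8.74 and 8.49 on day 3 and 9.95, 9.61 and 9.14 on day 4, without overlap (1.00 ± 0.26, limma adjusted p = 0.283). Lct, which encodes lactase, read 8.55, 10.86 and 8.70 and then 12.03, 11.76 and 8.57, so that day 4 replicate 3 lay among the day 3 arrays. The glucose transporter gene Slc2a2 had the same low array on day 4, with 7.35, 9.51 and 8.04 on day 3 and 10.94, 10.53 and 8.13 on day 4. Of 17 digestive enzyme genes none was called, 15 were higher in mean (54.5% of all genes were) and 3 had no overlap above (8.5% of all genes), with a median of 0.19. The sodium-coupled transporter gene Slc5a4b differed by 1.39 ± 0.49 (adjusted p = 0.661), and 15 of 23 sugar transport and glycolysis genes were higher in mean, with a median of 0.18.

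Markers of the secretory lineages were slightly higher in mean on day 4. Rgs13, a regulator of G protein signalling found in tuft cells, read 7.37, 6.82 and 6.87 on day 3 and 7.67, 7.74 and 8.0 on day 4, against a control mean of 5.30 that lay at background. The groups did not overlap and the difference was 0.79 ± 0.16 (limma adjusted p = 0.176). Dclk1, the microtubule kinase used to mark tuft cells, differed by 0.46 ± 0.09 (adjusted p = 0.176), whereas the taste channel gene Trpm5 (0.27 ± 0.18) and the tuft cell factor Pou2f3 (0.22 ± 0.12) overlapped. Of 21 tuft cell genes none was called and 17 were higher in mean (54.5% of all genes were). There were 6 with no overlap above (8.5% of all genes) and 1 below (4.91%), and the median was 0.2.

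The hormone gene Cck read 8.27, 8.35 and 8.5 on day 3 and 9.14, 9.04 and 8.67 on day 4, without overlap (0.58 ± 0.14, limma adjusted p = 0.22). Gip, a hormone gene of K cells, read 7.96, 8.47 and 8.27 and then 9.39, 9.47 and 8.45, where day 4 replicate 3 overlapped day 3. Of 26 enteroendocrine genes none was called and 21 were higher in mean (54.5% of all genes were). There were 8 with no overlap above (8.5% of all genes) and 1 below (4.91%). The median change of these genes was 0.21. Their summed linear intensity was 9342 to 12099 on day 3 and 12686 to 13318 on day 4. Among 17 goblet cell genes none was called, 13 were higher in mean (54.5% of all genes were) and the median was 0.05. In this list 5 had no overlap above (8.5% of all genes) and 0 below (4.91%). Its highest member, Bcas1, differed by 0.66 ± 0.17 without overlap (limma adjusted p = 0.311), and the mucin gene Muc2 by 0.17 ± 0.08.

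Genes of proliferating cells were lower in mean. Of 36 cell cycle and DNA replication genes none was called. In mean 33 were lower and 3 higher, against 45.5% and 54.5% of all genes. There were 17 with no overlap below and 0 above, against 4.91% and 8.5% of all genes, and the median was -0.29. Rrm1, the large subunit of ribonucleotide reductase, read 9.21, 9.06 and 9.35 on day 3 and 8.64, 8.74 and 8.42 on day 4, without overlap (-0.61 ± 0.23, limma adjusted p = 0.721). Top2a, the topoisomerase of dividing cells, differed by -0.56 ± 0.22 (0.747). The summed linear intensity of the list was 16817 to 18516 on day 3 and 13193 to 14938 on day 4, against 12255 to 14835 in controls. Of 21 stem cell genes none was called, 16 were lower in mean (45.5% of all genes were) and the median was -0.04. In this list 4 had no overlap below (4.91% of all genes) and 0 above (8.5%). Its lowest member, Aqp4, differed by -0.5 ± 0.12 without overlap (limma adjusted p = 0.223). Lgr5, the crypt stem cell receptor, differed by 0.02 ± 0.23.

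**Figure D5:**
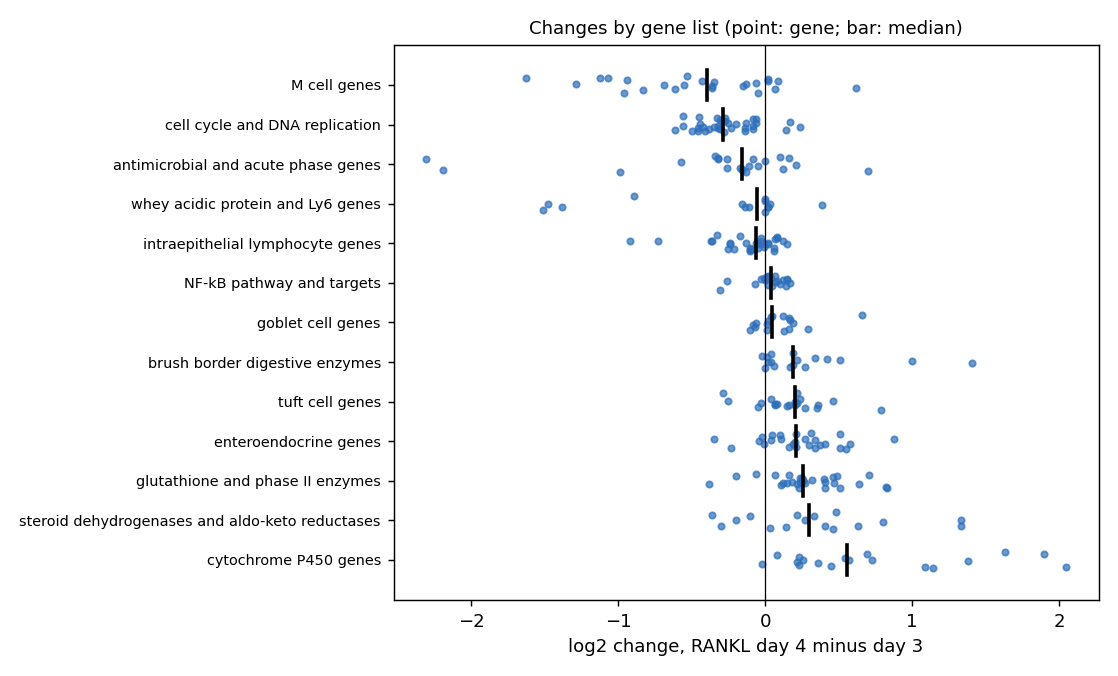
Log2 change from day 3 to day 4 of the members of 13 gene lists; each point is a gene and each bar the list's median. The median is -0.39 for the M cell list and -0.29 for the cell cycle list, and 0.55 for the P450 list.

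Markers of other cells in the epithelial fraction were measured beside these groups. Of 31 intraepithelial lymphocyte genes none was called, 22 were lower in mean (45.5% of all genes were) and 3 had no overlap below (4.91% of all genes), with a median of -0.06. Gzmb, the granzyme of cytotoxic lymphocytes, read 10.90, 10.07 and 10.18 on day 3 and 9.28, 9.94 and 9.16 on day 4 (-0.92 ± 0.31, limma adjusted p = 0.613). The list's summed linear intensity was 11732 to 16503 on day 3 and 9625 to 12033 on day 4, and its part in the other results was not tested. The sums of the myeloid list were 7089 to 8972 and 7603 to 8031, those of the B lineage list 5460 to 7302 and 5850 to 6324, and those of the stromal list 5674 to 6293 and 5064 to 7077, all overlapping.

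The interferon-stimulated genes were spread over the arrays of both days. Cxcl9, a chemokine gene induced by interferon gamma, read 9.54, 8.73 and 9.26 on day 3 and 7.71, 8.65 and 7.58 on day 4, a difference of -1.19 ± 0.39 (limma adjusted p = 0.583). Day 4 replicate 2 lay close to the day 3 arrays in this gene, as it did in Zbp1, a nucleic acid sensor gene, with 9.62 against 8.17 and 8.16. Of 29 such genes none was called, 18 were higher in mean and the median was 0.06. No member of the 16 lists whose counts are not given was called.

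Whether the step from day 3 to day 4 differed from the step from day 2 to day 3 was tested for each gene in the same fit. No gene was called (0.0%), 731 had an unadjusted p under 0.05, and the smallest adjusted p was 0.183. That value belonged to Wfdc18, whose difference of steps was -2.15 ± 0.31 (limma). For Hamp it was -2.23 ± 0.35 (adjusted p = 0.219), for Plekhs1 -0.62 ± 0.22 (0.999) and for Gp2 -2.83 ± 0.60 (0.869). For Spib, which was lower on each of the last 2 days than on the day before in mean, it was -0.36 ± 0.35 (0.999).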

How the data were processed

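Small-intestinal epithelial RNA of 15 mouse samples, 3 per group, was measured on Affymetrix arrays. The deposited values are linear intensities of 28853 probe sets; the submitters' processing notes name the build mm9, while how signals were background corrected, summarised or normalized is not given in the sources used here. Intensities were taken to log2 (offset 0) and quantile normalized, since array medians differed by 0.18. The 21789 probe sets with 1 symbol in GEO's platform annotation gave 19938 genes, each by its probe set with the highest mean; 1621 probe sets with several symbols and 5443 unlisted ones were left out.

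Limma 3.58.1 (R 4.3.3) fitted 1 mean per group over all 15 arrays (10 residual and 3.49 prior degrees of freedom), with two-sided tests and Benjamini-Hochberg adjustment over all genes. The method was tested on simulated data. Members, lists and naming rules were chosen with earlier results of these data known. The 37 lists hold 878 symbols, 771 of them measured; the 21 lists described were picked with the values in view. Named were the called genes, the largest changes without overlap at an unadjusted p under 0.05 up to 15 per direction, up to 4 called or 2 other members per list described, and 25 standing genes, which may be left out where they add nothing. Alternatives covered scaling, offset, a dim-gene filter, probe sets, prior, unmoderated statistics, array weights, a replicate block, smaller fits and each array left out. Arrays were left out of the fit only, after the normalization and the choice of probe sets. Nothing states that the arrays of a group are separate animals, so the p-values cover only the spread among samples, which may be technical; scan dates were not used here. The number of arrays limits the precision.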

Additional observations from a re-analysis of the deposited data

How the results depend on the processing

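The 3 calls rested on the pooled spread. The number of genes called was 5 with the values as deposited (4 lower, 1 higher), with median centring (3 lower, 2 higher) and with a trended and robust prior (5 lower), 1 without controls, and 0 with an ordinary t and with the 2 groups alone; the named genes called were 5, 1, 0 and 0 under the last 4 of these settings, and the list members called 4, 1, 0 and 0. With array weights, whose estimation stopped before it converged, 228 genes were called, 57 lower and 171 higher, 35 of the named genes and 59 list members among them; the weights ran from 0.18 for RANKL day 1 replicate 2 to 4.27 for RANKL day 1 replicate 3. With the dimmest 40% of genes left out, which removes Hamp and Plekhs1, 4 list members were called. The M cell list had 1 call with that filter, 1 with the trended and robust prior and 12 with array weights. Correlations between deviations from the group mean were -0.12, -0.01 and 0.13 for same-numbered arrays of days 3 and 4. For arrays with different numbers they ran from -0.26 to 0.32. With 3 arrays per group these values cannot settle whether replicate numbers pair the samples. With the replicate block 4 genes were called, 3 lower and 1 higher.

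Leaving out RANKL day 1 replicate 2 or each day 3 and day 4 array in turn gave 1 to 20 calls in all, 1 to 12 lower and 0 to 8 higher, 1 to 12 named genes, 1 to 13 list members and 0 to 4 M cell genes. Leaving out each array of days 2, 3 and 4 gave 0 to 1 gene for the difference of steps (1 without RANKL day 3 replicate 3). With each array of the controls and of days 2, 3 and 4 left out, 1 to 12 genes called lower had been called higher on day 2. Genes called higher were not part of that count. There were 12 calls when RANKL day 1 replicate 2 was left out. Without replicates 1, 2 and 3 of day 3 the counts were 20, 5 and 2, and without those of day 4 they were 1, 15 and 3. Hamp kept its call in each of these, and lost it with the ordinary t (adjusted p = 0.104) and the 2 groups alone (0.224). The median change of the genes higher on day 2 was -0.21 to -0.11 with an array left out. That of the genes lower on day 2 was 0.20 to 0.32, and 0.32 as deposited and 0.33 with median centring. The medians of 5 lists recomputed under 19 settings ran from -0.56 to -0.32 for M cell, -0.34 to -0.25 for cell cycle, 0.31 to 0.75 for P450, 0.17 to 0.29 for enteroendocrine and 0.14 to 0.2 for tuft cell genes.

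Values near 0 changed sign. Tnfrsf11a was -0.07 with array weights and ran from -0.11 to 0.14 with an array left out, and Lgr5 was -0.03 with array weights and ran from -0.15 to 0.11. Apoa4 ran from -0.06 to 0.19 and Slc40a1 from -0.4 to 0.26 with an array left out. The cause of these differences between settings was not tested.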
